A study of Mus musculus with 8 samples.

Results

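The mitochondrial chromosome of the mouse carries 37 annotated genes: 13 that encode proteins, 2 for ribosomal RNAs and 22 for transfer RNAs. All 37 were found, by their place on that chromosome in the GENCODE M21 annotation of GRCm38 (mm10), among the 54232 genes of each count table. The genes were chosen by genomic position and not by their values. RNA sequencing had been done on E14 embryonic stem cells, a pluripotent mouse line kept in serum with leukemia inhibitory factor, in 8 libraries that form 4 groups of 2. Libraries labelled Ssrp1 knockout came from cell lines edited with Cas9 and a guide RNA, and their reference is a control group of the same line. Usp7 knockdown libraries came from wild-type cells given 1000 ng of a pSuper puro plasmid with an shRNA against Usp7, then 1 ug/ml puromycin for 3 days after a 24 h interval, and they have a control group of their own. The labels used here do not say how many knockout clones were used, or whether the knockdown controls received an empty plasmid and puromycin. Nothing in the labels states that the replicates were separate cultures, so p-values measure the spread between libraries, which may be technical. Ssrp1 encodes a subunit of the histone chaperone FACT, and Usp7 encodes a deubiquitinase.

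Mitochondrial DNA is a small circle that is transcribed from both strands into long precursor RNAs. Transfer RNAs lie between most of the other genes, and their excision releases the messenger and ribosomal RNAs, after which most messengers receive short poly(A) tails. The proteins made from these messengers are core subunits of respiratory complexes I, III, IV and V, which assemble with many subunits encoded in the nucleus. All genes but 9 are read from the same template strand, and mt-Nd6 is the only protein-coding gene among those 9.

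Nuclear DNA holds old copies of the mitochondrial genome, which decides how far a read can be placed. A run of 7 unprocessed pseudogenes at chr1:24611535-24616197 (mm10, minus strand, 4663 bases) matched 7 of the 13 protein-coding genes. Less alike copies lay on other chromosomes, and their counts were not added to any gene. On chromosome 2, Gm13340 matched mt-Co1 (97.605%, 6700 counts over the 8 libraries), Gm13341 mt-Co2 (95.906%, 396 counts) and Gm13339 mt-Nd2 (96.667%, 38 counts). On chromosome 13, Gm4076 matched mt-Nd5 (95.178%, 8 counts). Within the chromosome 1 run, most copies had no mismatch. Gm28437 equalled mt-Co3 over 783 aligned bases, Gm28661 equalled mt-Co2 over 681 and Gm10925 equalled mt-Atp6 over 678. Gm10222 equalled mt-Nd4l over 294 bases and Gm28439 equalled mt-Nd4 over 876. The remaining chromosome 1 copies differed from their mitochondrial gene by 1 base each. The stretches around these single differences are shown because they are the only bases in the aligned part by which a read can be told apart, with the differing base in capitals, 5′ to 3′ in the direction of the gene. The first pair is written T3C, counted from the first base of mt-Nd3, at chrM:9459-9486 and chr1:24613092-24613119. The second is written A1066T, counted from the first base of mt-Co1, at chrM:6390-6418 and chr1:24616160-24616188.
mt-Nd3: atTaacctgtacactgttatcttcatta
Gm28438: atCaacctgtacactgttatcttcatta
mt-Co1: ggaAttgttttatccaactcatcccttga
Gm29216: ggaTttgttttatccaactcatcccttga

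Members also share bases with each other. The last bases of mt-Atp8 are the first of mt-Atp6, over the 43 bases of chrM:7927-7969, and the capitals mark the first codon of mt-Atp6. mt-Nd5 and mt-Nd6 share 14 bases on opposite strands, and mt-Nd4l and mt-Nd4 share 7.
mt-Atp8 and mt-Atp6: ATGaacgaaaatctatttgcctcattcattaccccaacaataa

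The transfer RNAs are 59 to 75 bases long, and the 4 with the most counts over the 8 libraries are shown with the anticodon in capitals (T in place of U). They are mt-Tp for proline (chrM:15356-15422, minus strand), mt-Th for histidine (chrM:11546-11612, plus strand), mt-Tn for asparagine (chrM:5089-5159, minus strand) and mt-Tc for cysteine (chrM:5192-5257, minus strand).
mt-Tp: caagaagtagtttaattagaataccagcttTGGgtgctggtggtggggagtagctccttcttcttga
mt-Th: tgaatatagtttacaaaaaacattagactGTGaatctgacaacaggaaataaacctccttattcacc
mt-Tn: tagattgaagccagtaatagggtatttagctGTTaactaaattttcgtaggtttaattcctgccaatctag
mt-Tc: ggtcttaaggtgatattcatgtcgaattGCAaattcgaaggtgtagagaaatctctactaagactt

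The deposited values were raw counts of reads per gene, with 15879056 to 18361130 counts per library, and levels are given as CPM, the count scaled to the library's total. All 92 spike-in rows held 0 counts, so a level is relative to the rest of its library. In such bulk samples, more mitochondrial RNA per cell, less nuclear messenger RNA per cell and a changed mix of cells cannot be told apart. Usp7 fell in the knockdown libraries to 117.9 and 133.9 CPM, against 356.5 and 388.9 CPM in their controls (log2 change -1.64, SE 0.19, adjusted p = 0.0012 with edgeR's quasi-likelihood test and Benjamini-Hochberg adjustment). Ssrp1 RNA was at 382.5 and 129.1 CPM in the libraries labelled Ssrp1 knockout, against 388.6 and 482.2 CPM in their controls, and did not pass that test (adjusted p = 0.41). Replicate 1 of the knockout label thus had an Ssrp1 level near that of its controls. The summed level of 7 embryonic stem cell markers was 4640 to 8440 CPM across the 8 libraries, where 7 fibroblast or feeder markers summed to 139 to 372 CPM. Most of the fibroblast sum was Vim, at 125 to 355 CPM, with Thy1 at 4.52 to 34.5 CPM and Col1a1 at 0.603 to 6.84 CPM, and Postn, Dcn and Twist2 were at or near 0 in each library.

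Mitochondrial genes took a larger share of the counts in the libraries labelled Ssrp1 knockout than in their controls. The share was 7.31% and 2.81% in the knockout-labelled libraries, against 0.732% and 0.776% in the Ssrp1 controls. The mean was 5.06% ± 3.18 in the knockout-labelled libraries and 0.754% ± 0.0316 in the controls (SD, n = 2 each), a ratio of 6.71. The groups did not overlap, and the knockout-labelled libraries lay further apart from each other than the controls did. In the Usp7 experiment the share was 2.44% and 2.03% with knockdown, against 2.23% and 1.67% in controls, with means of 2.23% ± 0.293 and 1.95% ± 0.398 (SD, n = 2 each), and these groups overlapped. Exact two-sided permutation tests gave p = 0.333 for the Ssrp1 experiment, the smallest value that 2 libraries against 2 allow, and p = 0.667 for the Usp7 experiment. The Ssrp1 controls had the lowest shares of the 8 libraries, and the Usp7 libraries stood between them and replicate 2 of the knockout label. The chromosome 1 copies added 2.33% and 0.831% of the counts in the knockout-labelled libraries, against 0.221% and 0.204% in the Ssrp1 controls.

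**Figure D1:**
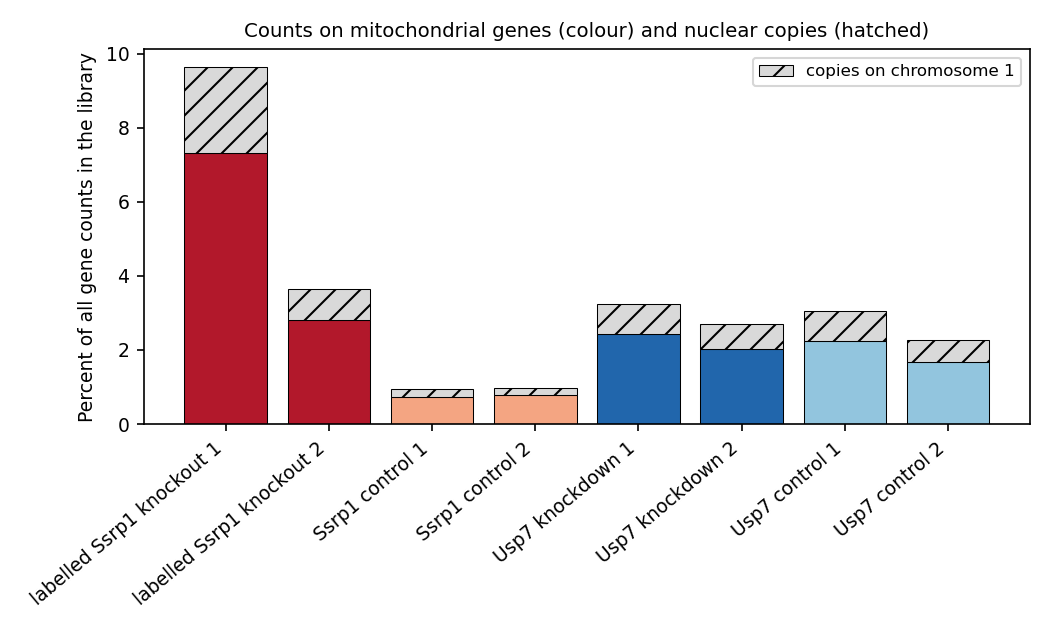
Percent of all gene counts in each library that fell on the 37 mitochondrial genes (coloured bars) and on the 7 chromosome 1 copies (hatched, stacked on top). The coloured bars reach 7.31% and 2.81% in the libraries labelled Ssrp1 knockout, 0.732% and 0.776% in the Ssrp1 controls, and 1.67% to 2.44% in the 4 Usp7 libraries.

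Of the 37 genes, 17 had enough counts for the test in the Ssrp1 experiment: all 13 protein-coding genes, both ribosomal RNAs and 2 transfer RNAs. In the edgeR test, 9 of the 17 rose in the libraries labelled Ssrp1 knockout and none fell, where 3.39% of all 15757 tested genes rose. The 9 were 8 protein-coding genes and mt-Tp. DESeq2 called 11 higher and 0 lower, where it called 5.7% of all genes higher. It kept 8 of the 9, without mt-Nd1 (adjusted p = 0.055), and added mt-Nd4, mt-Nd6 and mt-Rnr1. The median log2 change of the protein-coding genes was 2.89, with a range of 0.77 to 4.12, against a median of 0.03 over all tested genes. In CPM, 11 of the 13 protein-coding genes had both knockout-labelled libraries above both controls, where 27.1% of all tested genes did. The exceptions were mt-Nd4l and mt-Atp8.

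All 3 messengers of complex IV, cytochrome c oxidase, rose. They encode the oxidase's core subunits, and the mt-Co1 protein holds its catalytic centre. mt-Co3 stood at 4914 and 2447 CPM in the libraries labelled Ssrp1 knockout, against 244.3 and 238.2 CPM in the Ssrp1 controls. Both knockout-labelled values lay an order of magnitude above both controls, and mt-Co3 rose 15.0-fold (log2 change 3.91, SE 0.46, adjusted p = 0.0055 in the edgeR test). mt-Co2 stood at 5562 and 1582 CPM in the libraries labelled Ssrp1 knockout, against 365.5 and 385.6 CPM in the controls, and rose 9.5-fold (log2 change 3.25, SE 0.57, adjusted p = 0.016). mt-Co1 stood at 21170 and 13560 CPM, against 2035 and 2574 CPM in the controls, and rose 7.43-fold (log2 change 2.89, SE 0.47, adjusted p = 0.013). Among the 3 genes, mt-Co1 had the knockout-labelled replicates nearest to each other, and mt-Co2 had them furthest apart. Per kilobase of exon, mt-Co1 had the highest level of all 37 genes in each of the 8 libraries, at 13700 and 8777 CPM per kb in the libraries labelled Ssrp1 knockout, against 1317 and 1666 in the Ssrp1 controls.

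Complex I, NADH dehydrogenase, has 7 of its subunits encoded here, and 3 of their genes rose. mt-Nd3, a small membrane subunit, stood at 546 and 104.5 CPM in the libraries labelled Ssrp1 knockout, against 23.15 and 13.89 CPM in the controls, and had the largest change of the protein-coding genes (17.4-fold, log2 change 4.12, SE 0.69, adjusted p = 0.015 in the edgeR test). mt-Nd5, which encodes one of the proton-pumping membrane subunits, stood at 5404 and 1754 CPM, against 540.4 and 501.2 CPM in the controls, and rose 6.82-fold (log2 change 2.77, SE 0.53, adjusted p = 0.02). mt-Nd1 stood at 8730 and 1943 CPM, against 745.5 and 713.9 CPM in the controls, and rose 7.32-fold (log2 change 2.87, SE 0.63, adjusted p = 0.034). In all 3 the groups were separate, and replicate 1 of the knockout label was several times as high as replicate 2.

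The remaining complex I genes did not pass the edgeR test, but DESeq2 called mt-Nd4 (adjusted p = 0.00049) and mt-Nd6 (adjusted p = 0.044) higher. mt-Nd2 stood at 4845 and 502.4 CPM in the knockout-labelled libraries, against 385.4 and 293.4 CPM in the controls (log2 change 2.98, SE 0.81, adjusted p = 0.07 in the edgeR test). mt-Nd4 stood at 5131 and 1245 CPM, against 513.5 and 800.1 CPM in the controls (log2 change 2.30, SE 0.59, adjusted p = 0.059). For both genes replicate 2 of the knockout label lay much nearer to the controls than replicate 1 did. mt-Nd4l stood at 669.6 and 241 CPM in the knockout-labelled libraries, against 240.9 and 292.8 CPM in the controls (log2 change 0.77, SE 0.44, adjusted p = 0.39). Its knockout-labelled replicate 2 lay between the controls. mt-Nd6, read from the opposite strand, stood at 1640 and 487.4 CPM in the knockout-labelled libraries, against 421.3 and 331.8 CPM in the controls (log2 change 1.48, SE 0.51, adjusted p = 0.15).

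Among the other messengers, mt-Cytb and mt-Atp6 rose. mt-Cytb encodes cytochrome b of complex III and stood at 7558 and 1710 CPM in the libraries labelled Ssrp1 knockout, against 569.5 and 421.2 CPM in the controls (9.28-fold, log2 change 3.21, SE 0.65, adjusted p = 0.025 in the edgeR test). mt-Atp6 encodes subunit a of the ATP synthase, complex V, and stood at 4789 and 1831 CPM, against 862.5 and 697.4 CPM in the controls (4.18-fold, log2 change 2.06, SE 0.49, adjusted p = 0.045). For both genes the groups were separate. mt-Atp8, a short subunit of the same enzyme, stood at 77.84 and 2.543 CPM in the knockout-labelled libraries, against 6.329 and 4.334 CPM in the controls (log2 change 2.92, SE 1.06, adjusted p = 0.16). Its replicates lay on opposite sides of the controls, although mt-Atp8 and mt-Atp6 lie on one precursor and share the bases shown above.

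**Figure D2:**
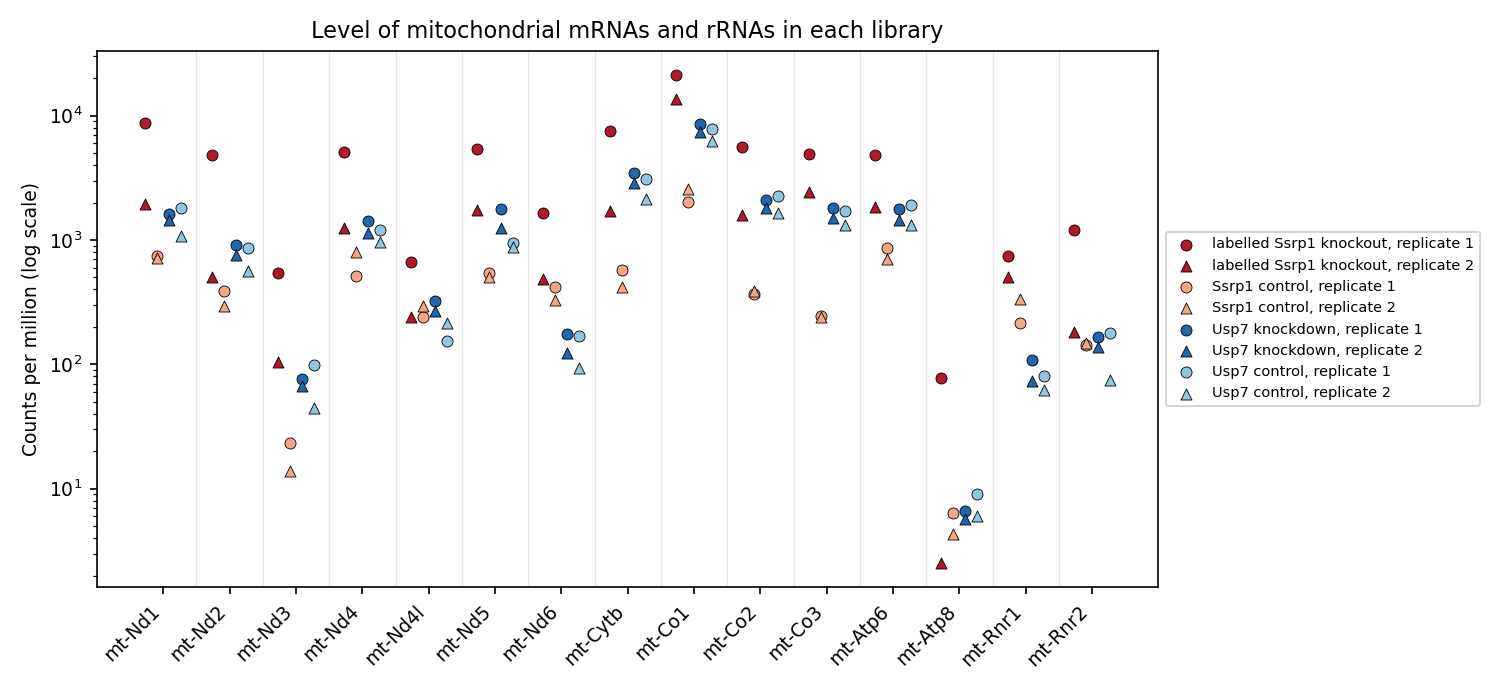
Level of the 13 protein-coding and 2 ribosomal RNA genes in each library, in CPM on a log scale (circles: replicate 1, triangles: replicate 2). For mt-Co3 the libraries labelled Ssrp1 knockout stand at 4914 and 2447 CPM and the Ssrp1 controls at 244.3 and 238.2 CPM, while for mt-Atp8 the knockout-labelled replicates lie on opposite sides of the controls.

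The ribosomal RNAs are the structural RNAs of the mitochondrial ribosome, and neither passed the edgeR test. DESeq2 called mt-Rnr1. mt-Rnr1, the small-subunit RNA, stood at 740.2 and 502 CPM in the libraries labelled Ssrp1 knockout, against 213.3 and 337.7 CPM in the controls (log2 change 1.16, SE 0.33, adjusted p = 0.084 in the edgeR test). mt-Rnr2, the large-subunit RNA, stood at 1204 and 183.1 CPM, against 143.6 and 149 CPM in the controls (log2 change 2.26, SE 0.67, adjusted p = 0.092). Both groups were separate for each RNA, but the second knockout-labelled library exceeded the controls only slightly for mt-Rnr2. The library kit was made for messenger RNA, so ribosomal and transfer RNA counts depend on how much of these RNAs passed through it, which was not tested.

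Transfer RNAs had few counts. They summed to 2328 and 469 counts in the libraries labelled Ssrp1 knockout, against 98 and 140 counts in the Ssrp1 controls, and to 434 and 420 counts with Usp7 knockdown, against 454 and 298 in the Usp7 controls. At least 1 count was recorded for 20 and 8 of the 22 genes in the knockout-labelled libraries, against 9 and 9 in the controls. mt-Tf and mt-Ts1 had no count in any library. In 5 of the 22 the knockout-labelled libraries were both above both controls, a share no larger than the 27.1% of all tested genes. mt-Tp had 646 and 430 counts in the libraries labelled Ssrp1 knockout, against 69 and 106 in the controls, and rose 6.26-fold (log2 change 2.65, SE 0.42, adjusted p = 0.013 in the edgeR test). mt-Th had 361 and 22 counts, against 14 and 22 in the controls, and did not pass (adjusted p = 0.094). mt-Tn had 629 and 1 counts, against 6 and 3 in the controls, and mt-Tc had 233 and 5, against 1 and 0. These transfer RNAs other than mt-Tp were thus high in knockout-labelled replicate 1 and low in replicate 2, and mt-Tn and mt-Tc were not among the 17 tested genes.

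The difference between the knockout-labelled replicates was not a common factor over the genes. As a ratio to the control mean in CPM, replicate 1 and replicate 2 stood at 20.4 and 10.1 for mt-Co3, 9.19 and 5.88 for mt-Co1, 7.78 and 4.87 for mt-Tp, and 29.5 and 5.64 for mt-Nd3. They stood at 14.3 and 1.48 for mt-Nd2, 8.23 and 1.25 for mt-Rnr2, 14.6 and 0.477 for mt-Atp8, and 2.51 and 0.903 for mt-Nd4l. Replicate 1 was thus above the control mean for each of these genes, and replicate 2 ranged from below the control mean to about an order of magnitude above it.

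The composition of the mitochondrial counts differed accordingly. mt-Co1 took 28.95% and 48.22% of the mitochondrial counts in the libraries labelled Ssrp1 knockout, against 27.82% and 33.15% in the Ssrp1 controls. mt-Co3 took 6.72% and 8.702% in the knockout-labelled libraries, against 3.338% and 3.069% in the controls. mt-Nd4l took 0.9157% and 0.8568%, against 3.292% and 3.773% in the controls, and mt-Nd6 took 2.24% and 1.73%, against 5.76% and 4.27%. For these genes other than mt-Co1 the replicates of a group were close and the groups separate, whichever replicate had the larger total. The ribosomal RNAs took 2.66% and 2.44% in the knockout-labelled libraries, against 4.88% and 6.27% in the controls. In the 4 Usp7 libraries the same shares were 34.87% to 37.46% for mt-Co1, 7.447% to 7.958% for mt-Co3 and 0.56% to 0.755% for mt-Nd6.

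**Figure D3:**
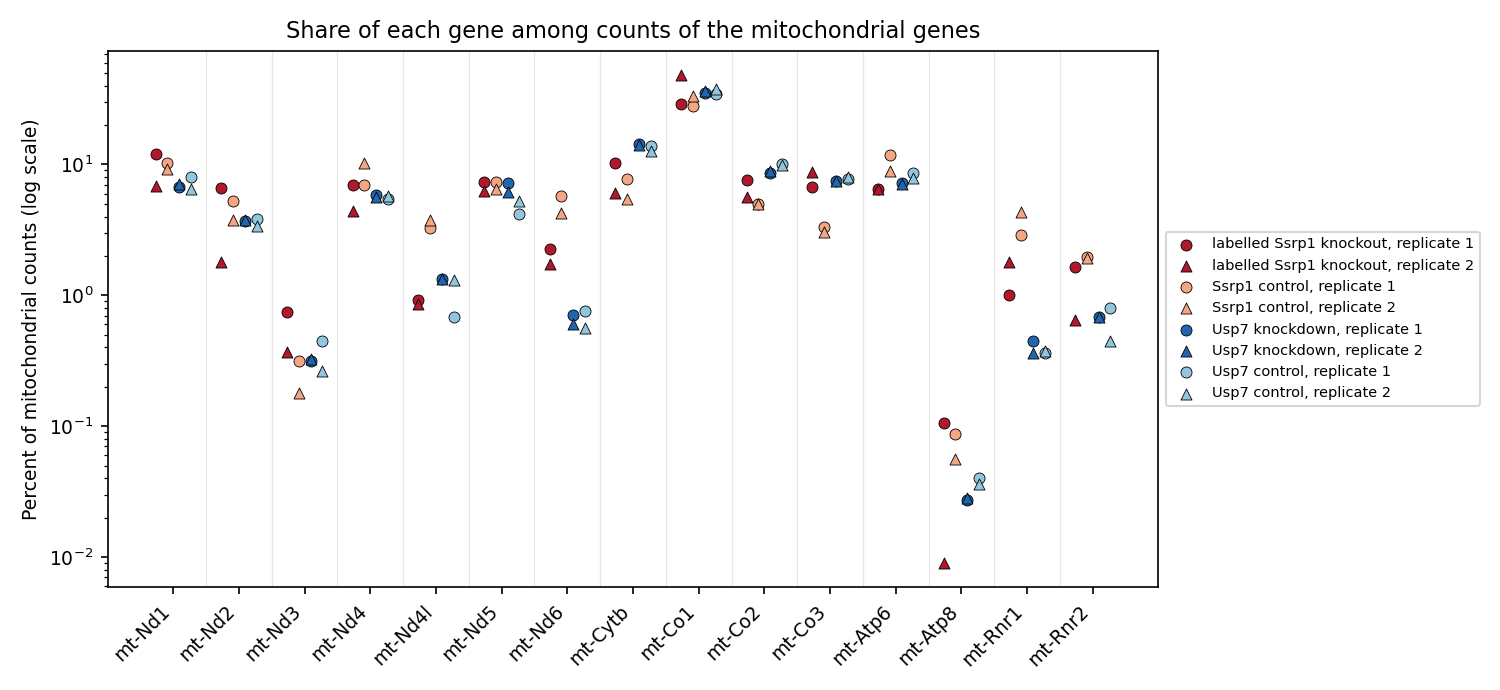
Percent of the mitochondrial counts of each library that fell on each gene, on a log scale (circles: replicate 1, triangles: replicate 2). The Ssrp1 controls stand apart from the other 6 libraries for mt-Co3, at 3.338% and 3.069%, and for mt-Nd6, at 5.76% and 4.27%.

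Usp7 knockdown gave no called change among 20 tested mitochondrial genes in the edgeR test, where 2.99% of all 15915 tested genes were called in either direction. At an unadjusted p under 0.05 there were 2, where 16.7% of all genes had such a p, and DESeq2 called 0. The median log2 change of the protein-coding genes was 0.09, with a range of -0.37 to 0.66 and SEs of 0.21 to 0.33. mt-Nd5 stood at 1760 and 1260 CPM with knockdown, against 938.3 and 878.3 CPM in the Usp7 controls (log2 change 0.66, SE 0.25, adjusted p = 0.21 in the edgeR test). mt-Nd4l stood at 325.1 and 267.9 CPM with knockdown, against 152.9 and 216.6 CPM in the controls (log2 change 0.62, SE 0.21, adjusted p = 0.16). These were the 2 protein-coding genes of 13 with both knockdown libraries above both controls, where 28.5% of all tested genes were so. Both were called, 2 of 20 genes, when the replicate number was added as a block, where 9.24% of all genes were called, so their share was near the background. mt-Co1 stood at 8627 and 7336 CPM with knockdown, against 7771 and 6241 CPM in the controls, and mt-Cytb stood at 3483 and 2848 CPM, against 3113 and 2122 CPM, so that the groups overlapped for both. Without Usp7 control replicate 1, mt-Rnr2 alone was called, and without Usp7 control replicate 2 there were 3 calls: mt-Nd4l higher, mt-Nd3 and mt-Tl2 lower. All-gene shares called in these settings were 3.71% and 22.5%.

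**Figure D4:**
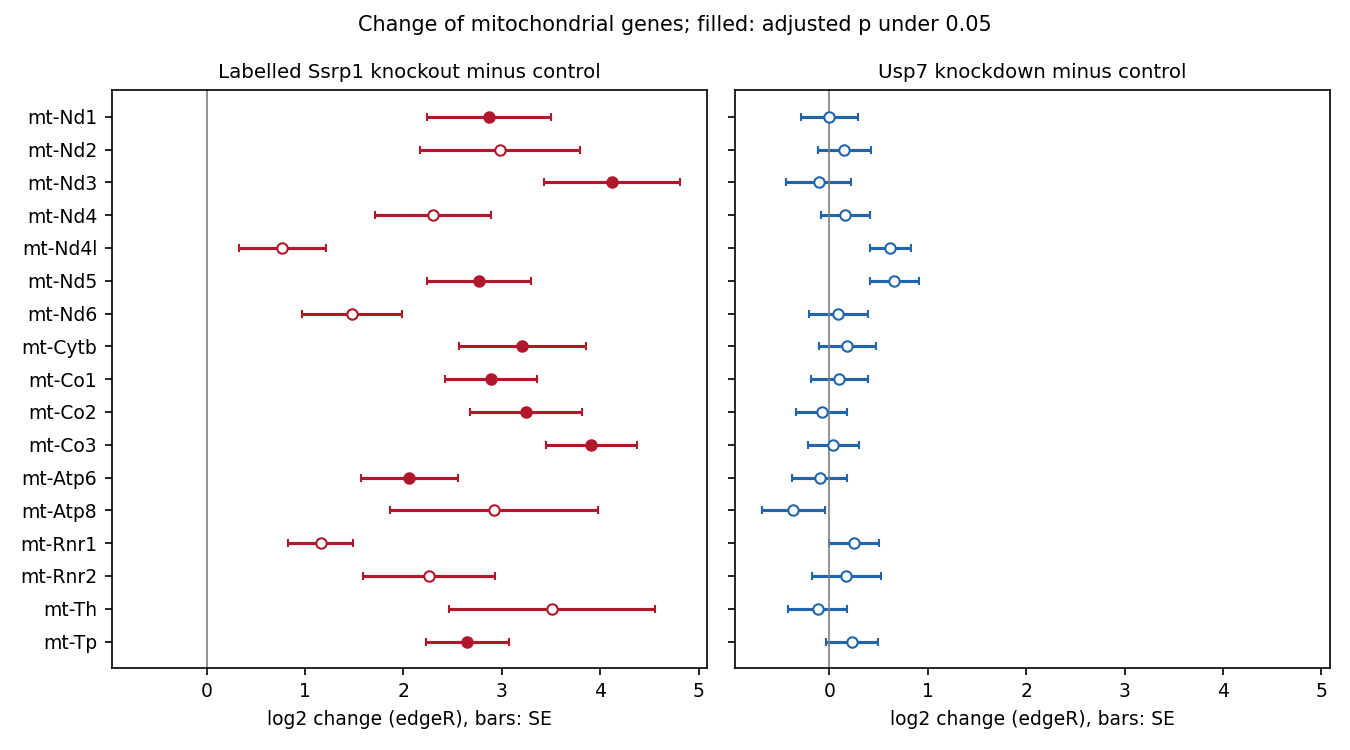
Log2 change of 17 mitochondrial genes in the libraries labelled Ssrp1 knockout against their controls (left) and in Usp7 knockdown against its controls (right), from edgeR, with bars of 1 SE and filled points for an adjusted p under 0.05. The protein-coding genes lie between 0.77 and 4.12 on the left and between -0.37 and 0.66 on the right.

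One model of all 8 libraries, in which 22 mitochondrial genes had enough counts, tested the change under the Ssrp1 knockout label minus the change with Usp7 knockdown. This difference was called higher for mt-Co3 (log2 difference 3.82, SE 0.53, adjusted p = 0.013 in the edgeR test), mt-Co1 (2.74, SE 0.49, adjusted p = 0.029) and mt-Tp (2.37, SE 0.49, adjusted p = 0.049), 3 of 22, where 0.61% of all 17052 tested genes were. The mitochondrial calls were lost without Ssrp1 control replicate 1, Usp7 control replicate 1, or either Usp7 knockdown library. In those fits the calls over all genes were nearly lost too. Without knockout-labelled replicate 2, more mitochondrial genes were called higher, and so were more of all genes. Some transfer RNAs passed the filter only when a library was left out, and each such fit leaves a single library in a group.

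The 2 control groups also differed from each other. In the same fit, Ssrp1 controls minus Usp7 controls, 4 genes were lower, where 3.92% of all genes were, and 1 was higher, where 4.06% were. mt-Co3 stood at 244.3 and 238.2 CPM in the Ssrp1 controls, against 1722 and 1326 CPM in the Usp7 controls (log2 difference -2.52, SE 0.39, adjusted p = 0.0054 in the edgeR test). mt-Co2 (-2.24), mt-Cytb (-2.25) and mt-Co1 (-1.48) were the other lower genes. After the GC correction these 3 lost their call and mt-Nd6 gained one. Then 2 genes were higher and 1, mt-Co3, was lower, where 5.31% and 3.19% of all genes were. With length in the correction these 3 kept their call, and 5 genes were lower and 2 higher, where 2.82% and 4.43% of all genes were. The replicate block also gave 5 lower and 2 higher, where 7.42% and 8.02% of all genes were. mt-Rnr1 stood at 213.3 and 337.7 CPM in the Ssrp1 controls, against 81.26 and 62.5 CPM in the Usp7 controls, and was the gene called higher (log2 difference 2.05, SE 0.33, adjusted p = 0.0062). mt-Nd6 stood at 421.3 and 331.8 CPM in the Ssrp1 controls, against 168.2 and 93.34 CPM in the Usp7 controls, and did not pass (adjusted p = 0.075). Experiment and control group cannot be told apart here. The count of calls fell without any one of the control or Usp7 knockdown libraries, and rose without either knockout-labelled library. Calls over all genes moved in the same direction, and each such fit leaves a single library in a group.

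Counts of the chromosome 1 copies were set against those of the genes they match. As a ratio of counts, Gm28437 over mt-Co3 was 0.996 to 1.01 across the 8 libraries, Gm28661 over mt-Co2 was 0.969 to 1.01, and Gm10222 over mt-Nd4l was 0.926 to 1.03. The aligned parts have no mismatch in these 3 pairs, nor in the mt-Atp6 and mt-Nd4 pairs. How the authors' counting treated reads with several equal places is not given in the sources used here. Gm10925 over mt-Atp6 was 1.04 to 1.4, and Gm28438 over mt-Nd3 was 1.07 to 1.41. Gm28439 matches 876 of the 1378 bases of mt-Nd4, and its ratio to the whole gene was 0.129 to 0.363. The level of Gm28439 was 1861 and 160.8 CPM in the libraries labelled Ssrp1 knockout, against 168.7 and 185.7 CPM in the controls. In knockout-labelled replicate 2 this copy thus lay below both controls, while mt-Nd4 lay above both. Gm29216 matches only 483 of the 1545 bases of mt-Co1, and its ratio was 0.14 and 0.134 in the libraries labelled Ssrp1 knockout, against 0.0659 and 0.04 in the Ssrp1 controls, so the copy and the whole gene did not move alike. Gm29216 rose by 4.29 on the log2 scale (SE 0.43, adjusted p = 0.0045 in the edgeR test), against 2.89 for mt-Co1. Of the 8 protein-coding genes that rose, 5 have such a copy and 3, mt-Nd1, mt-Nd5 and mt-Cytb, have none there. The levels of the 7 matched genes are therefore uncertain. mt-Atp8 is affected in part too, because its last 43 bases, shared with mt-Atp6, also lie in Gm10925. The search covered annotated transcripts only, so other nuclear matches of mt-Atp8 were not tested. With the copies' counts added to the 7 matched genes, mt-Atp6 was the only one of the 9 genes to lose its call.

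**Figure D5:**
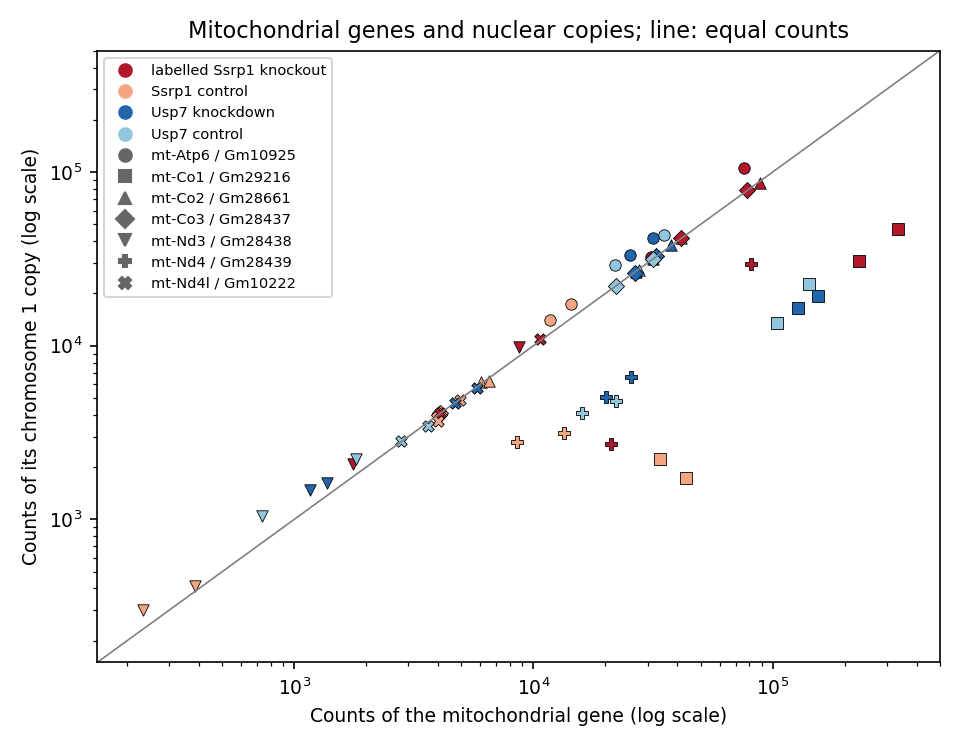
Counts of 7 mitochondrial genes (x axis) and of their chromosome 1 copies (y axis) in each library, both on a log scale, with a line of equal counts. The mt-Co2, mt-Co3 and mt-Nd4l pairs lie on the line, at ratios of 0.926 to 1.03, and the mt-Co1 and mt-Nd4 pairs lie below it.

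Base composition moved with the comparison. The 13 protein-coding genes have a GC content of 31.9% to 41.1%. Among nuclear genes, the tenth with the lowest GC content, 1572 genes, had a median log2 change of 0.97 in the libraries labelled Ssrp1 knockout, and 14.8% of them rose, while with Usp7 knockdown the corresponding median was 0.07. Their median deviation from the experiment's mean was 0.69 and 0.23 on the log2 scale in the knockout-labelled libraries, against -0.70 and -0.24 in the controls. After a correction of each library for its GC trend, 4 of the 9 genes stayed called, where 1.8% of all genes rose: mt-Co3 (log2 change 2.85, adjusted p = 0.0078 in the edgeR test), mt-Tp (2.35, adjusted p = 0.011), mt-Co1 (2.01, adjusted p = 0.042) and mt-Co2 (2.11, adjusted p = 0.045). With length in the correction, or with a shorter span of the GC trend, mt-Nd3 made 5. The other values after the GC correction included 1.57 for mt-Nd1, 1.43 for mt-Nd5, 2.08 for mt-Cytb and 0.57 for mt-Atp6, none of them called. The correction takes out any real change that follows GC content as well, and the part of base composition in the result was otherwise not tested.

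Leaving out libraries changed the Ssrp1 calls further. Without Ssrp1 control replicate 1, 2 genes stayed called, mt-Co1 and mt-Co3. Without Ssrp1 control replicate 2, and likewise without knockout-labelled replicate 1, 7 were called: mt-Co1, mt-Co2, mt-Co3, mt-Nd3, mt-Nd5, mt-Cytb and mt-Tp. In those settings 0.0938%, 1.77% and 6.83% of all genes rose. Without knockout-labelled replicate 2, all 17 genes of the full comparison were called, where 8.91% of all genes rose. In that setting 11 more transfer RNAs passed the filter on low counts through the high counts of replicate 1, so that their calls, which made the total 28, are no result. mt-Co1 and mt-Co3 were called under each of the 15 alternatives that were run for this comparison. Protein-coding genes with symbols of Rpl or Rps and a digit, 98 in all, stood in for cytosolic ribosomal protein genes. Some kinases have such symbols and some ribosomal protein genes do not, so the set is approximate. It took 7.94% and 9.33% of the counts in the libraries labelled Ssrp1 knockout, against 14.8% and 11.3% in the controls. The part of this shift in the result was not tested. Markers of the 2-cell-like state, which some embryonic stem cells enter for a time, summed to 424 and 1320 CPM in the knockout-labelled libraries over 8 genes, against 47.7 and 152 CPM in the controls. Primitive endoderm markers summed to 27.5 and 24 CPM over 5 genes, against 3.26 and 6.77 CPM. Replicate 2 had the higher 2-cell-like sum and replicate 1 the higher mitochondrial share, and the part of these cells in the result was not tested.

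In a list of 71 nuclear genes that express and maintain the mitochondrial genome, 70 were tested in the Ssrp1 experiment, 1 rose and none fell, where 3.71% of all tested genes were called in either direction. At an unadjusted p under 0.05 there were 7, where 18.2% of all genes had such a p, and DESeq2 called 3 higher, where it called 7.04% of all genes. The count of calls was thus near the background. The list's median log2 change was 0.04, against 0.03 over all genes. The gene that rose was Pnpt1, which encodes a mitochondrial polynucleotide phosphorylase, at 101.4 and 71.45 CPM in the libraries labelled Ssrp1 knockout, against 15.13 and 21.43 CPM in the controls (log2 change 2.22, SE 0.33, adjusted p = 0.01 in the edgeR test). Tfam, which packages mitochondrial DNA and starts its transcription, stood at 130.9 and 126.2 CPM in the knockout-labelled libraries, against 85.06 and 88.33 CPM in the controls (log2 change 0.52, SE 0.26, adjusted p = 0.33). The mitochondrial RNA polymerase Polrmt had a log2 change of 0.04 (SE 0.28), and the messenger-binding factor Lrpprc one of 0.14 (SE 0.27). Of 78 mitochondrial ribosomal protein genes, 77 were tested and 1, Mrps30, rose, at 61.84 and 60.33 CPM in the knockout-labelled libraries, against 11.88 and 25.29 CPM in the controls (log2 change 1.70, SE 0.35, adjusted p = 0.029). Their median log2 change was -0.21.

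With Usp7 knockdown, edgeR and DESeq2 both called 0 of the 70 tested genes of the first list and 0 of the 77 of the second, where edgeR called 2.99% and DESeq2 4.38% of all genes. At an unadjusted p under 0.05 edgeR had 5 and 3, where 16.7% of all genes had such a p. The median log2 changes were -0.14 and -0.22, against -0.02 over all tested genes.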

How the data were processed

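RNA of E14 cells was treated with DNase and made into libraries with a VAHTS mRNA-seq V2 kit and random primers, per the labels' protocols. The authors deposited one table of unnormalised read counts per gene for each experiment. The submitters' processing notes name cutadapt, HISAT2, featureCounts and mm10. Tool versions, strand mode and the handling of multi-mapping reads were not given in the sources used here. Groups came from sample titles.

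The 37 genes were taken by chromosome from GENCODE M21, which held 54079 of the 54232 identifiers. Nuclear copies were found with blastn 2.17.0 against its transcripts (at least 95% identity over 50 bases). Each experiment was fitted over all genes with edgeR 4.0.16 in R 4.3.3 (filterByExpr, TMM factors of 0.92 to 1.08, quasi-likelihood test, Benjamini-Hochberg adjustment, threshold 0.05). The difference of the effects and the comparison of controls came from a joint fit of 8 libraries. Each SE of an edgeR change is the absolute log2 change divided by the square root of the F statistic. The steps were tested on simulated data. In the edgeR simulation the spread followed a trend over all genes, so the wide spread of the mitochondrial genes was not covered. GC and length trends were removed per library with loess (span 0.5, or 0.2 as an alternative). DESeq2 1.42.0, other scalings, no filter, added copy counts, a replicate block and left-out libraries were tried. Replicates of each group differed by far more than counting error (chi-square of 13 to 89.3 per gene). All protein-coding and ribosomal RNA members, and the transfer RNAs tested within either experiment, were named. The joint fit also tested mt-Tr and mt-Ts2, and called neither. Members, gene lists and alternatives were chosen with earlier results of these data known. The added 7-copy sums and the shorter span were chosen after seeing the data.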

Additional observations from a re-analysis of the deposited data

Results flagged for a closer look

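The change under the Ssrp1 knockout label and the change with Usp7 knockdown differed, by the edgeR test of the difference itself in the joint fit, for mt-Co3 (log2 difference 3.82, adjusted p = 0.013), mt-Co1 (2.74, adjusted p = 0.029) and mt-Tp (2.37, adjusted p = 0.049). In each case both libraries labelled Ssrp1 knockout stood above both of their controls. For mt-Tp the Usp7 knockdown libraries also stood above their controls, by a smaller amount, at 209 and 197 counts with knockdown against 188 and 136 counts in controls. These 3 differences lost their calls without Ssrp1 control replicate 1, where the calls over all genes were nearly lost too. After the GC correction mt-Co3 alone was called, and with length in the correction mt-Co1 and mt-Co3 were. mt-Tp also lost its call with another scaling (RLE).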

How the results depend on the processing

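The 9 Ssrp1 calls, where 3.39% of all genes rose, became 4 with the GC correction (1.8%). They were 5 with GC and length (1.72%) and 5 with a shorter GC span (2.02%). They became 26 of 35 tested without a filter, and 2 to 28 with a library left out. The 28 include 11 transfer RNAs that the full comparison did not test. These 11 were also tested with either Ssrp1 control library left out, and were not called there. Without a filter 4.23% of all genes rose, and 10 of the 26 Ssrp1 calls were transfer RNAs that the full comparison did not test. These 10 had 17 (mt-Tt) to 629 (mt-Tn) counts in knockout-labelled replicate 1, and at most 7 (mt-Tw) in replicate 2. The Usp7 count of 0 became 2 with the replicate block, where 9.24% of all genes were called. The difference of the effects, 3 calls, became 7 with DESeq2, 7 with the replicate block, 1 with either GC span, 21 without a filter and 0 to 22 with a library left out. The share of all genes with a higher difference, 0.61% in the joint fit, was 2.49% with DESeq2 and 1.32% with the replicate block. It was 0.311% and 0.305% with the GC spans, and 2.01% without a filter. Of the 21 calls without a filter, 2 were transfer RNAs not tested in the joint fit. These were mt-Tl1, with 117 and 0 counts in the knockout-labelled libraries, and mt-Tt, with 17 and 0. The comparison of controls, 5 calls where 7.98% of all genes were called, became 3 with either GC span (8.5% and 8.15%). More genes were then higher than lower. It became 7 with GC and length (7.25%), 7 with the replicate block (15.4%) and 15 of 35 without a filter (8.02%). Each of these counts also moved with some library left out, as did the calls over all genes. Leaving out a library leaves 1 in its group, which is assumed to vary like the others. Directions of genes that were not called turned for mt-Atp8 (-1.29) and mt-Nd4l (-0.34) without knockout-labelled replicate 1, against 3.88 and 1.36 without replicate 2, and with the GC correction for mt-Nd4l (-0.01), mt-Nd6 (-0.30) and mt-Rnr1 (-0.16). They also turned with the shorter span (-0.02, -0.34 and -0.19 for the same 3 genes) and, with length, for mt-Nd6 (-0.09) and mt-Rnr1 (-0.06). The mean Ssrp1 control share was 0.921% with 4 copies added, 0.967% with 7 and 0.711% for protein-coding genes only. It was 0.867% without the genes of Rpl and Rps symbols in the total. In the knockout-labelled libraries the share was 9.64% and 3.64% with 7 copies, and 7.1% and 2.74% for protein-coding genes only. The Usp7 knockdown and control shares were 2.91% and 2.60% with 4 copies, and 2.98% and 2.66% with 7. Causes of these shifts were not tested. Same-numbered libraries correlated in their deviations at 0.18 and 0.14, over 2 pairs each, too few to show whether the numbers pair the libraries, and the block left the Ssrp1 count at 9. Counting error is large for the transfer RNAs, of which 15 stayed under 10 counts in every Usp7 library.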
